A study of Mus musculus with 4 samples.

Results

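Haemoglobin and erythroid genes were followed in whole mouse testis as 5 genes: the adult alpha-globin genes Hba-a1 and Hba-a2, the adult beta-globin genes Hbb-bs and Hbb-bt, and Alas2. They are a list of names known for this role, with no measured value in the rule that picks them, though the list was drawn up when earlier results of these data were known. All 5 had a row among the 25265 genes of the count table. Testes of C57BL/6 mice at postnatal day 56 gave 4 libraries of rRNA-depleted total RNA, 2 with the genotype label control and 2 labelled Ythdf2-vKO. YTHDF2 is a cytoplasmic reader of N6-methyladenosine in RNA, and the series title calls its mutation germ cell-specific. The labels name neither the allele nor the driver of the deletion, nor what genotype the control mice had. They do not say whether the libraries of a group came from separate animals, so p-values measure only the spread between these libraries, which may be technical. Whether blood was flushed from the testes is not given in the sources used here.

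Gene counts totalled 24862518 to 29561182 per library. Counts of the targeted gene Ythdf2 were 1193 and 1604 in control, against 1774 and 1807 with the Ythdf2-vKO label (log2 fold change 0.35, adjusted p = 0.238 by edgeR's quasi-likelihood test). A lower transcript level was thus not seen where the label would place it, counts over a whole gene do not show which exons were read, and directions are given for vKO-labelled libraries relative to control libraries. The tissue label was checked against 8 spermatid genes, among them the protamines Prm1 and Prm2. All 8 were detected, with a summed level of 6593 to 8591 CPM (counts relative to the library's TMM-scaled total) per library.

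Haemoglobin, the oxygen carrier of red cells, is built from alpha and beta globin chains that each hold a haem group. Mammalian erythrocytes lose their nucleus, but young red cells in the circulation still carry globin mRNA, so an organ taken with its blood usually yields globin reads. Alas2 encodes the erythroid form of 5-aminolevulinate synthase, the enzyme of the first and rate-limiting step of haem synthesis, and Alas1 encodes the form used in other tissues. C57BL/6 mice carry the beta-globin haplotype with Hbb-bs and Hbb-bt in place of the Hbb-b1 and Hbb-b2 genes of other strains.

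The alpha genes lie 12023 bases apart on the plus strand of chromosome 11 (Hba-a1, ENSMUSG00000069919, chr11:32283511-32284465, and Hba-a2, ENSMUSG00000069917, chr11:32296489-32297298, both in GENCODE M21 on GRCm38, as are all gene positions here). The beta genes lie 12537 bases apart on the minus strand of chromosome 7 (Hbb-bs, ENSMUSG00000052305, chr7:103826534-103828096, and Hbb-bt, ENSMUSG00000073940, chr7:103812524-103813996). Alas2 (ENSMUSG00000025270) spans chrX:150547375-150570638 on the plus strand. It overlaps Apex2, a DNA repair endonuclease gene on the opposite strand that had 31 to 50 counts per library against 407 to 715 for Alas2. Whether strand was used in counting is not given in the sources used here.

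Each globin gene has a near-copy in its own cluster, which bears on every count given for one of them. The coding sequences of Hba-a1 and Hba-a2, 429 bases each, differed at 1 base (C381T, position counted from 1 at the A of the start codon, Hba-a1 base first). Those of Hbb-bs and Hbb-bt, 444 bases each, also differed at 1 base (C417T, Hbb-bs base first). The stretches that hold these bases are shown because they are the only coding sequence by which a read could be given to one copy. The capital marks the differing base.
Hba-a1: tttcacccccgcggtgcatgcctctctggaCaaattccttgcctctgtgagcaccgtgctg
Hba-a2: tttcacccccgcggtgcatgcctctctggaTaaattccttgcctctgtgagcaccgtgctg
Hbb-bs: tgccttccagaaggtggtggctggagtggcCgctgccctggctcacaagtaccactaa
Hbb-bt: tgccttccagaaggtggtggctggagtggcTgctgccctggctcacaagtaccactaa
Over the whole GENCODE M21 transcripts the aligned alpha pair had 1 differing and 537 matching bases, and the aligned beta pair 46 differing against 580 matching. Of the windows of 100 bases in the Hba-a2 transcript, 25.5% were absent from the transcripts of Hba-a1, and 43.5% of those of Hba-a1 were absent from Hba-a2. For the beta pair these shares were 37.4% for Hbb-bs and 45.2% for Hbb-bt. How reads that match both copies were counted is not given in the sources used here, so the split between the copies is uncertain, and so is the total if such reads were left out.

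The 250 bases before the RefSeq start site of each gene (GRCm38.p6) are shown. The reason is that 4 of the members had higher levels in both libraries of one group, as described below. Of these 4, Hba-a2 had 4 to 8 counts per library and was not tested. Among all genes tested, 22.7% were higher in both libraries labelled vKO than in both controls. All 5 members matched an entry. Over the 247 bases that both alpha windows cover, Hba-a1 and Hba-a2 were 100% identical, so the window of Hba-a2 (chr11:32296242-32296491) is not repeated. Capitals mark 4 short motifs searched on both strands: GATAA, the core bound by GATA factors, CACCC, the element bound by KLF1 in erythroid cells, CCAAT, and TATAA.
Hba-a1, chr11:32283422-32283671, plus strand: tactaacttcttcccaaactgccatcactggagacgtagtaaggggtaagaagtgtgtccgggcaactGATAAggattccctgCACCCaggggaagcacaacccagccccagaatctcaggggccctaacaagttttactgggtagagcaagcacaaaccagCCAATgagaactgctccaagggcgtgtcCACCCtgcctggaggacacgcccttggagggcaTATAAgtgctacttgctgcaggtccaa
Hbb-bs, chr7:103827929-103828178, minus strand: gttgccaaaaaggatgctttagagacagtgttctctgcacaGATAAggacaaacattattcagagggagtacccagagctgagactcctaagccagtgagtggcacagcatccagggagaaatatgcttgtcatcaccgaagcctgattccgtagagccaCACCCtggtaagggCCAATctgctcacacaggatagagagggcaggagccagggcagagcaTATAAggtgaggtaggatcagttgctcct
Hbb-bt, chr7:103813924-103814173, minus strand: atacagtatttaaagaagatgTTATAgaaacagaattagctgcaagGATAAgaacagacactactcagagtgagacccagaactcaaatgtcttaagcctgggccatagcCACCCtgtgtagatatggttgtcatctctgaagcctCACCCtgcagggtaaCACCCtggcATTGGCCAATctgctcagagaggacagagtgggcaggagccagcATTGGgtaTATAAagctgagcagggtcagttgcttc
Alas2, chrX:150547167-150547416, plus strand: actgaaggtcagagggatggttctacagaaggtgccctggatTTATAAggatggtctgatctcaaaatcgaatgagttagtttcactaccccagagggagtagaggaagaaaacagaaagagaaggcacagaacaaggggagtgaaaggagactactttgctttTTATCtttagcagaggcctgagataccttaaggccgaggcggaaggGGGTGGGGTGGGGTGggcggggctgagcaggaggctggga
All 4 globin windows held all 4 motifs, against 0.968% of the 32851 promoter windows of the same length. The motifs were picked by name, and both alpha windows hold the same sequence, so they are not separate cases. Enrichment of the motifs was not tested. Their TATAA nearest to the start site began 27 to 30 bases before it and their CCAAT nearest to it, on the strand shown, 75 to 91 bases before it. The Alas2 window held GATAA on the other strand, 86 bases before the start, CACCC on the other strand in a run of 3, and a TATAA 207 bases before the start that overlaps its own reverse, TTATA. No CCAAT was found in it on either strand. Single motifs were common, with GATAA in 22.6%, CACCC in 52.0%, CCAAT in 33.8% and TATAA in 22.8% of all windows. GENCODE M21 starts the 5 genes 3 to 168 bases upstream of the RefSeq sites, so that in its models up to 168 of the bases before a site are transcribed.

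Levels were compared between genes per length, as TPM (counts over the length of the union of each gene's M21 exons, scaled to 1 common total in every library). Alas2 had the highest mean over the 4 libraries, 26.9 ± 5.16 TPM (SD, n = 4), above that of 71.5% of the genes tested. Hbb-bs followed at 25.2 ± 10.8 TPM and Hba-a1 at 19.4 ± 7.99 TPM. Hbb-bt had 2.59 ± 1.29 TPM and Hba-a2 1.05 ± 0.259 TPM, above those of 26.1% and 12.6% of the genes tested.

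The order among the first 3 was not fixed. Alas2 ranged from 19.98 to 32.4 TPM, Hbb-bs from 16.9 to 40.6 TPM and Hba-a1 from 14.2 to 31.1 TPM, so their ranges overlapped. Alas2 lay above Hbb-bs in both control libraries and in replicate 2 labelled vKO, and below it in replicate 1 labelled vKO. Hbb-bt, from 1.34 to 3.88 TPM, lay below all of Hba-a1. Hba-a2, from 0.707 to 1.31 TPM, lay below all of Hbb-bt by a narrow margin. In red cell precursors globin mRNA normally far exceeds that of Alas2. Here the 4 globin genes together had 1.66 and 1.29 times the TPM of Alas2 in control and 2.74 and 1.49 times in the vKO-labelled libraries, with the reservation on shared reads given above.

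**Figure D1:**
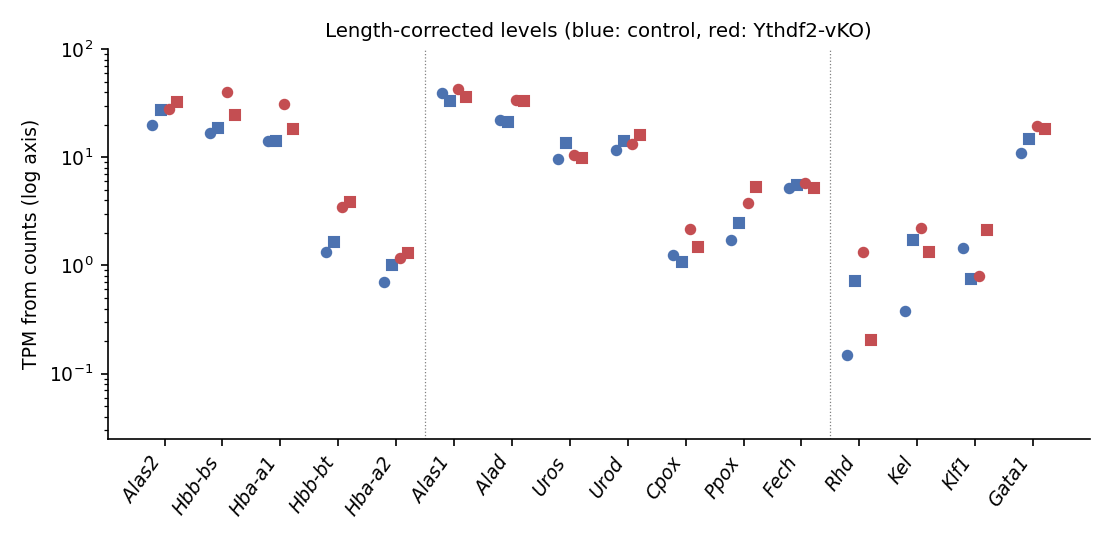
TPM on a log axis for the 5 members (left), 7 other haem synthesis enzymes (middle) and 4 erythroid genes (right), 1 point per library, circles for replicate 1 and squares for replicate 2. Alas2, Hbb-bs and Hba-a1 lie between 14.2 and 40.6 TPM, near the points of Alas1 and Alad, while Rhd lies at 1.34 TPM or lower. The 4 erythroid genes do not stand for all listed ones. In the same list as Rhd, Car1 ran from 0 to 0.692 TPM and Hemgn from 137 to 174 TPM.

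With the vKO label the fitted level of Hba-a1 was 1.64 times that in control, that of Hbb-bs 1.74 times, that of Hbb-bt 2.33 times and that of Alas2 1.21 times. None of these differences passed edgeR's test across all genes, which 0.393% of the genes tested did. Hba-a1 had 98 and 120 counts in control, against 225 and 136 with the vKO label. Scaled, this was 4.09 ± 0.134 against 6.72 ± 2.38 CPM (SD, n = 2 each). Both libraries labelled vKO lay above both controls, but replicate 2, at 5.04 CPM, was nearer to the controls, at 4.19 and 4.0 CPM, than to replicate 1, at 8.40 CPM. A log2 fold change of 0.71 (SE 0.26) resulted, for which the adjusted p was 0.246 by edgeR's quasi-likelihood test. Without replicate 1 labelled vKO it was 0.30, and without replicate 2 labelled vKO 1.03.

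Hba-a2, the second alpha gene, had 4 and 7 counts in control, against 7 and 8 with the vKO label. It did not pass the filter on low counts and was not tested with the others. In CPM the libraries ran from 0.171 to 0.233 in control and from 0.261 to 0.296 under the vKO label. In the fit with no filter its log2 fold change was 0.44 with an SE of 0.84, larger than the difference itself.

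Hbb-bs held most of the beta counts, as Hba-a1 did of the alpha counts, with the reservation on shared reads given above. Hbb-bs had 110 and 149 counts in control, against 278 and 175 with the vKO label. Its level was 4.83 ± 0.187 CPM in control and 8.43 ± 2.75 CPM under the vKO label (SD, n = 2 each). Replicate 1 labelled vKO stood highest at 10.4 CPM, replicate 2 at 6.48 CPM, and the controls at 4.70 and 4.97 CPM. The log2 fold change of 0.80 (SE 0.25, 95% interval 0.27 to 1.33 unadjusted) had an adjusted p of 0.178 in edgeR's fit over all genes. With the replicate number as a block the adjusted p was 0.0465 by edgeR's quasi-likelihood test, under the threshold of 0.05. That fit called 627 genes higher and 390 lower, against 59 and 24 genes in the fit without a block. Without control replicate 2 the log2 fold change was 0.84. Without replicate 1 labelled vKO the log2 fold change was 0.42, and without replicate 2 labelled vKO 1.10.

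Hbb-bt, the second beta gene, had 8 and 12 counts in control, against 22 and 25 with the vKO label. Here replicate 2 labelled vKO was the highest library, at 0.926 CPM, and replicate 1 had 0.821 CPM, against 0.342 and 0.400 CPM in control. The groups did not overlap and replicates lay close together, at 0.371 ± 0.0410 against 0.874 ± 0.0741 CPM (SD, n = 2 each). With so few counts the log2 fold change of 1.22 had an SE of 0.54 and an adjusted p of 0.334 by edgeR's quasi-likelihood test.

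Alas2 had 407 and 687 counts in control, against 598 and 715 with the vKO label, or 20.1 ± 3.89 against 24.4 ± 2.94 CPM (SD, n = 2 each). The groups overlapped: control replicate 2, at 22.9 CPM, lay above replicate 1 labelled vKO, at 22.3 CPM. The lowest library was control replicate 1, at 17.4 CPM. Its log2 fold change was 0.27 (SE 0.17, 95% interval -0.09 to 0.64), with an adjusted p of 0.518 by edgeR's quasi-likelihood test. It was 0.09 without control replicate 1 and 0.49 without control replicate 2.

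**Figure D2:**
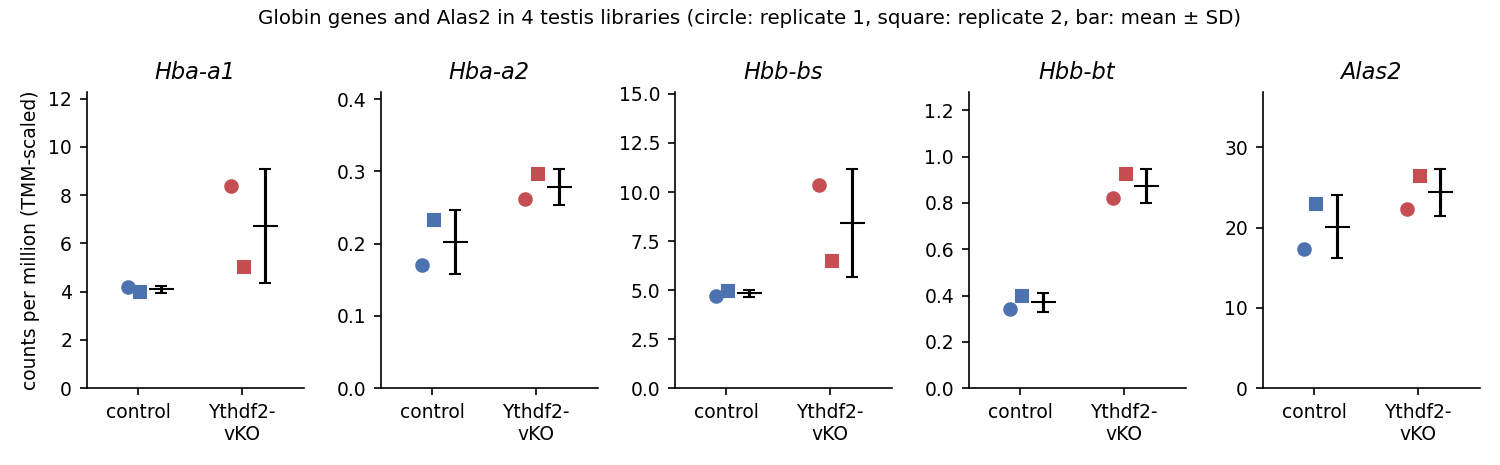
TMM-scaled CPM of the 5 genes in each library, from 0 on each axis, with a scale of its own for each gene; bars give mean ± SD of 2 libraries. For Hba-a1 and Hbb-bs replicate 1 labelled vKO stands well above the other 3 libraries, for Hbb-bt both libraries labelled vKO stand above control, and for Alas2 the groups overlap.

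Over all 21132 genes tested, edgeR called 59 genes higher and 24 genes lower with the vKO label at an adjusted p under 0.05 (181 and 37 when scaled by library totals alone, 89 and 67 with an offset for GC content), which is 0.393% in either direction and 0.279% higher. None of the 4 tested members was called (0 of 4). At an unadjusted p under 0.05, 3 of the 4, Hba-a1, Hbb-bs and Hbb-bt, were higher, against 7.65% of all genes higher and 14.1% in either direction. Both libraries labelled vKO lay above both controls for the same 3 of the 4, against 22.7% of all genes tested. These 3 are all globin genes, and Hbb-bs and Hbb-bt are near-copies that may share reads. They are therefore not 3 separate observations to set against shares of all genes. A DESeq2 Wald test called 0 of the 3 members to which it gave an adjusted p, against 1.32% of all such genes. The authors' deposited table held the same values as this DESeq2 Wald test for the members, so it is not a separate result. Its log2 fold changes were 0.71 for Hba-a1, 0.80 for Hbb-bs and 0.27 for Alas2. The adjusted p values of these 3 were 0.333, 0.191 and 0.664 by the Wald test, and Hba-a2 and Hbb-bt had none. The median log2 fold change of the 4 tested members was 0.76, against 0.00265 over all genes tested.

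The make-up of the globin counts was then compared within libraries, where depth and scaling cancel. Alpha genes held 46.4% (95% exact binomial interval 39.6 to 53.2) and 44.1% (38.3 to 50.0) of the globin counts in control, and 43.6% (39.3 to 47.9) and 41.9% (36.6 to 47.3) in the vKO-labelled libraries. All 4 intervals overlapped, while the summed globin counts were 8.85 and 9.74 CPM of the unscaled library total in control and 20.2 and 13.1 CPM under the vKO label. These intervals cover counting error only. No molecular identifiers are described, so the same molecule may be counted more than once and the intervals may be too narrow. The ratio of alpha to beta counts was 0.827 ± 0.0534 in control and 0.747 ± 0.0377 in the vKO-labelled libraries (SD, n = 2 each).

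The second copy of each pair took a small share of the counts, though the split is uncertain for reads that match both copies. Hba-a2 made up 3.92% and 5.51% of the alpha counts in control and 3.02% and 5.56% under the vKO label. Hbb-bt made up 6.78% and 7.45% of the beta counts in control, 7.33% in replicate 1 labelled vKO and 12.5% (8.26 to 17.9) in replicate 2 labelled vKO, where the interval overlapped those of the other libraries. Globin counts per Alas2 count were 0.541 and 0.419 in control, against 0.890 and 0.481 with the vKO label, and replicate 2 labelled vKO lay between the controls. This ratio spanned a wider range than that of alpha to beta counts, which ran from 0.720 to 0.864.

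**Figure D3:**
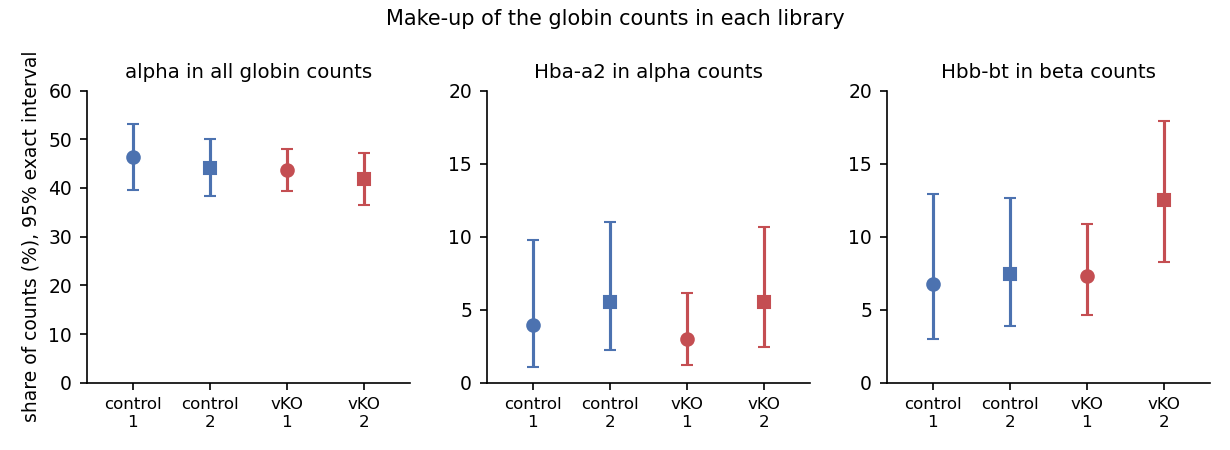
Share of counts in percent with 95% exact binomial intervals in each of the 4 libraries: alpha genes among all globin counts, Hba-a2 among alpha counts, and Hbb-bt among beta counts. The alpha share stays between 41.9% and 46.4%, and the Hbb-bt share is highest in replicate 2 labelled vKO, at 12.5%.

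Other genes of haemoglobin production were taken from lists by role. The DESeq2 Wald test called 0 genes in those of erythroid, haem, iron and scavenging genes that follow, against 1.32% of all genes with an adjusted p. It gave an adjusted p to 8 haem synthesis, 18 iron and haem, 16 membrane, 7 transcription and 1 scavenging genes. The rest of these lists could not be called by it. All 10 further genes of the alpha and beta clusters that were listed, such as the embryonic Hbb-y and Hba-x, had no row and were not analysed here. Among the 10 were Hbb-b1 and Hbb-b2, beta-globin genes of other strains, so their missing rows say nothing on expression in the strain used here. Of the globins used outside red cells, Adgb (androglobin, abundant in testis) had 137.8 ± 0.533 CPM in control and 124.9 ± 8.83 CPM under the vKO label. Cygb (cytoglobin) and Ngb (neuroglobin) had log2 fold changes of 0.12 and 0.11, and none of the 3 tested was called by edgeR or had an unadjusted p under 0.05.

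The 8 other enzymes of haem synthesis were all tested and none was called by edgeR, though 2 had an unadjusted p under 0.05, both higher, as did 7.65% of all genes tested. Alad, the enzyme of the step after 5-aminolevulinate synthase, had 349 and 411 counts in control, against 571 and 568 with the vKO label (log2 fold change 0.57, SE 0.15, adjusted p = 0.135 by edgeR). Ppox, which oxidises protoporphyrinogen, had 66 and 117 against 153 and 219 (log2 fold change 1.03, SE 0.26, adjusted p = 0.117 by edgeR). For Alad and Ppox both libraries labelled vKO lay above both controls in CPM, as in 4 of the 8 enzymes and 22.7% of all genes tested. Alas1, at 32.9 to 43.3 TPM the most abundant enzyme of the list per length, had a log2 fold change of 0.05. The median of the list was 0.23.

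Among 21 genes of iron and haem transport and haem breakdown, 16 had a log2 fold change above 0, against 10632 of all 21132 genes tested. In that list 5 had an unadjusted p under 0.05, all higher, against 7.65% of all genes, and none was called by edgeR. The ferritin chains, which store iron, had log2 fold changes of 0.49 (Ftl1, adjusted p = 0.145 by edgeR) and 0.41 (Fth1, adjusted p = 0.151 by edgeR). Slc40a1 (ferroportin, the iron exporter) had 34 and 47 counts in control and 81 in each library labelled vKO, a log2 fold change of 0.99 with an adjusted p of 0.180 by edgeR. Hmox1, the inducible haem oxygenase, had 0.56, and the transferrin receptor gene Tfrc, by which red cell precursors take up iron, had -0.09. The median of the list was 0.21.

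Erythroid identity genes were uneven in level. Of 30 listed genes of the red cell membrane, surface and cytosol, 23 had a row and 18 were tested, with 11 log2 fold changes above 0, a median of 0.08, 1 unadjusted p under 0.05 and no call by edgeR. Slc4a1 (band 3), Epb42, Rhag, Icam4, Ahsp (the alpha-globin chaperone), Trim58 and Tspo2 had no row and were not analysed here. Car1 (carbonic anhydrase 1) had 0 and 9 counts in control and 2 and 1 under the vKO label, where a count of 0 allows up to 3. Prdx2, an antioxidant enzyme (log2 fold change 0.37), and Hemgn, a haematopoietic nuclear factor (-0.25), were among the 3 with the lowest p. Hemgn had 3167 to 4511 counts per library, more than any of the 4 haemoglobin genes. Which cells of the testis gave the Hemgn counts was not tested.

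Of the 10 genes for erythroid transcription factors and the erythropoietin receptor, edgeR called none, and 3 higher and 1 lower had an unadjusted p under 0.05. Gata1, an erythroid regulator that Sertoli cells also express, had 227 and 372 counts in control, against 427 and 406 with the vKO label (log2 fold change 0.48, adjusted p = 0.245 by edgeR). Ldb1, its widely expressed partner, had a log2 fold change of 0.56 (adjusted p = 0.135 by edgeR), and Nfe2, a regulator of globin genes, had -0.66 (adjusted p = 0.283 by edgeR). Klf1, the factor bound at CACCC elements, had 19 and 12 counts in control and 11 and 30 under the vKO label, and its groups overlapped.

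**Figure D4:**
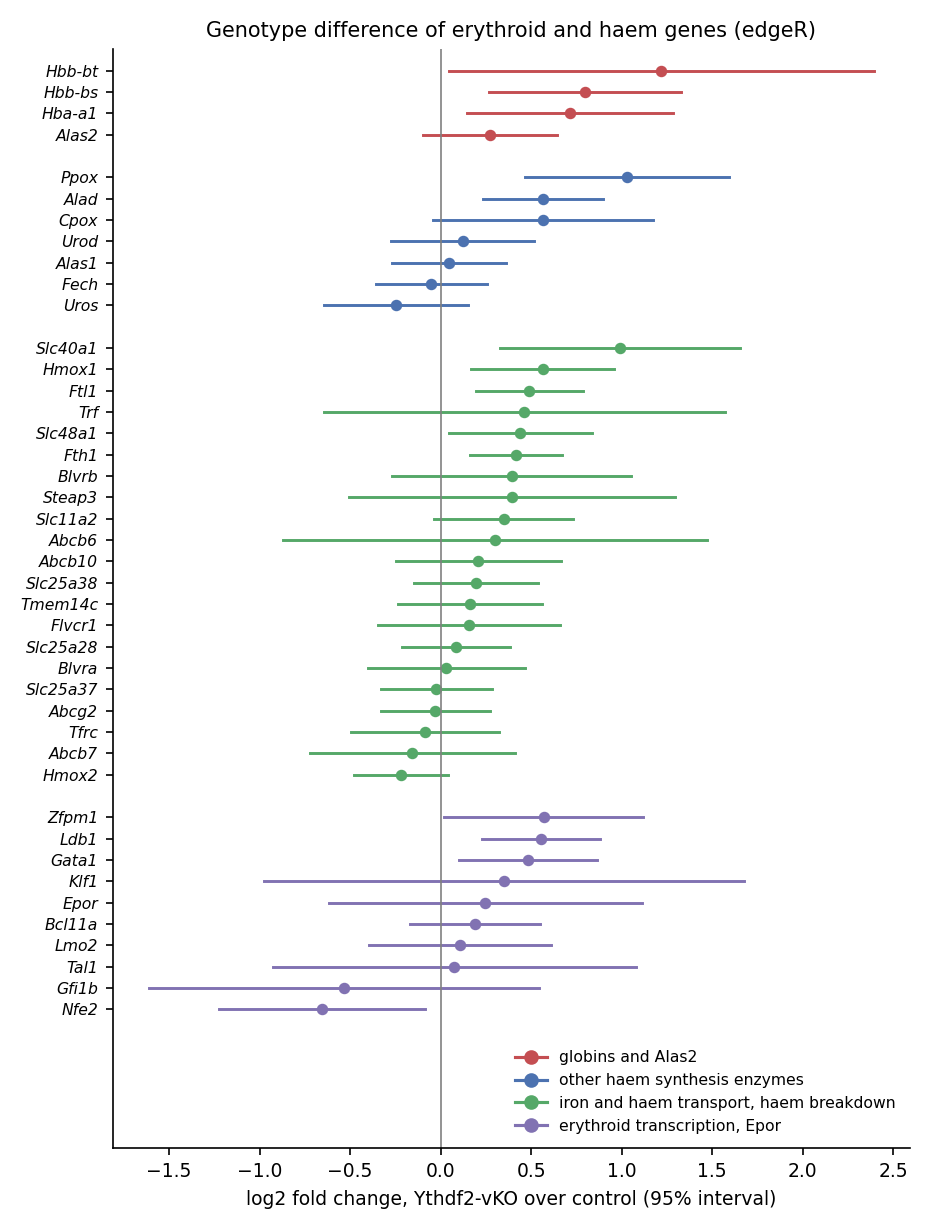
Log2 fold change of tested genes of 4 lists, libraries labelled vKO over control, with its unadjusted 95% interval from edgeR; colours mark the gene list. Intervals of Hba-a1, Hbb-bs and Hbb-bt lie above 0 and that of Alas2 crosses 0, yet no gene in the plot had an adjusted p under 0.05.

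Among genes of haemoglobin and haem scavenging, Cd163, the macrophage receptor for haptoglobin bound to haemoglobin, had 7 and 20 counts in control, against 42 and 36 with the vKO label, a log2 fold change of 1.54 (SE 0.50) with an adjusted p of 0.196 by edgeR. Lrp1, which takes up haemopexin with its haem, had 0.25, and Hp (haptoglobin) had 0.08. The 8 macrophage genes had a median of 0.04 and a summed level of 58.7 and 97.0 CPM in control and 88.7 and 73.4 CPM under the vKO label, so that their groups overlapped.

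Markers of other cell types were set beside the globin values, because in RNA of a whole organ fewer cells of a type and less RNA per cell cannot be told apart. The summed globin CPM was 153% (alpha) and 154% (beta) of its mean over the libraries in replicate 1 labelled vKO, 94.5% and 102% in replicate 2, and 69.5% to 77.2% in the controls. Replicate 1 labelled vKO was also the highest library for the summed endothelial, Sertoli and Leydig genes. The 11 endothelial genes had 60.1 CPM there, against 52.5 in replicate 2 and 45.8 and 36.4 in control. The 10 Sertoli genes had 1422 CPM there, against 1246, and 987 and 1030 in control. The 7 Leydig genes had 458 CPM there, against 345, and 292 and 354 in control. Vwf alone gave 30.8 CPM of the endothelial sum there, against 23.5 in replicate 2 and 26.1 and 14.2 in control. Among the other endothelial genes, Flt1 was higher in replicate 1 labelled vKO and Cdh5 in replicate 2. Clu alone gave 933 CPM of the Sertoli sum, against 801, and 658 and 714 in control. Spermatid genes were lowest in replicate 1 labelled vKO, at 6593 CPM, against 6700 in replicate 2 and 8591 and 7256 in control. The 6 spermatocyte genes were highest in that library, at 981 CPM, against 895 in replicate 2 and 922 and 953 in control. The 5 peritubular myoid genes were highest in control replicate 2, at 81.1 CPM, against 78.4 CPM in replicate 1 labelled vKO. Among endothelial genes 8 of 10 tested had a log2 fold change above 0 (median 0.40), against 10632 of all 21132 genes tested. Flt1 (0.70), Cdh5 (0.83) and Eng (0.72) had the lowest p, while Egfl7 (-0.43) and Pecam1 (-0.20) were below 0. Sertoli genes gave 10 of 10 (median 0.45). Among them Wt1 was called (0.71, adjusted p = 0.0418 by edgeR), against 0.393% of all genes tested. The DESeq2 Wald test called 3 of them higher, Wt1, Amhr2 and Cldn11, against 1.32% of all genes with an adjusted p. The part of these cell types in the globin values was not tested.

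Markers of other blood cells gave few counts. Of 7 platelet genes 5 had a row; their summed level was 5.17 and 5.33 CPM in control, against 6.49 and 7.19 CPM with the vKO label. Their sum was thus highest in replicate 2 labelled vKO. Pf4 (platelet factor 4), by contrast, had 18 and 22 against 42 and 18 counts, highest in replicate 1 labelled vKO, where Hba-a1 and Hbb-bs were also highest. Itga2b (integrin alpha IIb) was highest in replicate 2, at 4.04 CPM against 3.21 CPM in replicate 1. Of 8 neutrophil genes 2 had a row, and S100a8 and S100a9, abundant in circulating neutrophils, were not among them. The sum of those 2 was lowest in replicate 1 labelled vKO, at 2.87 CPM, against 4.67 CPM in replicate 2 and 4.53 and 4.87 CPM in control. Of 8 lymphocyte genes 6 had a row, with summed levels of 2.78 and 6.37 CPM in control and 4.37 and 6.26 CPM under the vKO label.

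**Figure D5:**
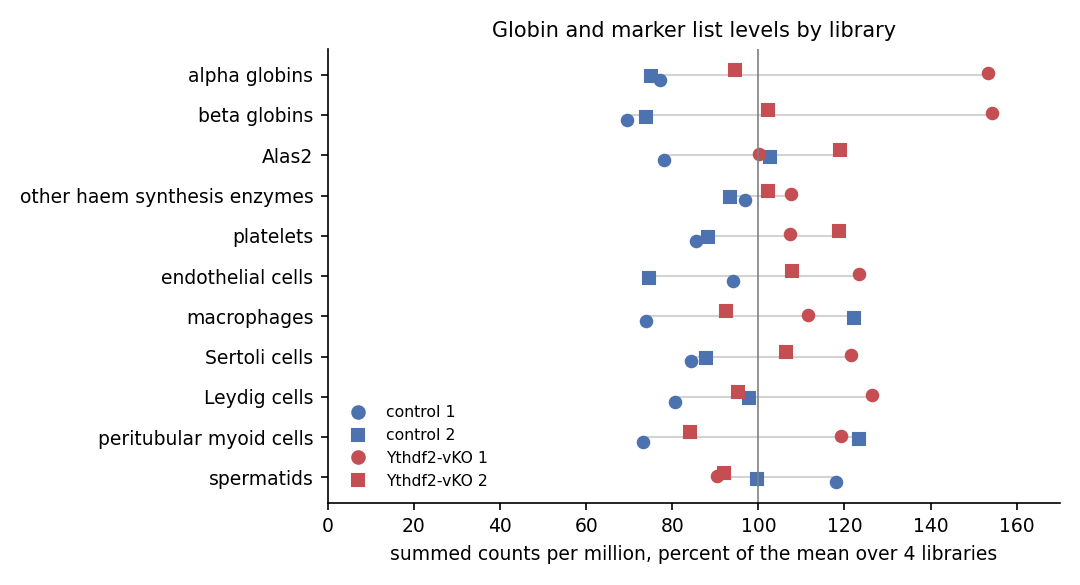
Summed CPM of the globin pairs, Alas2 and 8 gene lists in each library, in percent of the mean over the 4 libraries; circles are replicate 1, squares replicate 2, blue control and red labelled vKO. The alpha and beta genes reach 153% and 154% in replicate 1 labelled vKO, a wider spread than that of any list shown. Each globin pair sums 2 genes, fewer than any list shown, so these spreads are not like for like. The lymphocyte genes, not shown, ran from 56.2% to 129%.

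Genes with the pattern most like that of the 4 tested members were found by the root mean square distance between deviations of log2 CPM from the gene's own mean, over 4 libraries and 17823 genes of at least 1 CPM. The nearest were Ros1 (distance 0.00789), 4930573I07Rik (0.0155), Zdhhc9 (0.0293), Ank (0.0323) and Vasn (0.0428), where the median gene had 0.409. None of these 5 was called by edgeR, and their log2 fold changes ran from 0.65 to 0.75. The members themselves lay farther from their own mean, at 0.155 for Hbb-bs, 0.191 for Hba-a1, 0.278 for Hbb-bt and 0.295 for Alas2. Over 4 libraries such likeness is weak, and 3320 genes lay within the distance of Alas2.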

How the data were processed

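Whole-testis RNA of 4 libraries was measured by rRNA-depleted RNA-seq with a directional kit, per the labels' protocols. The authors deposited 1 table of raw counts per gene and library. HISAT2 2.1.0 and HTSeq 0.6.1p1 are named in the submitters' processing notes; settings, use of strand and genome build are not given in the sources used here. The authors' deposited columns also hold a mean normalized count (a signal), a log2 fold change and the error of it, a test statistic (a score), and a p-value with its adjusted p-value, per the file headers. The lowest sum of counts of any listed gene was 10, and rarer genes were not analysed here. Identifiers were matched to GENCODE M21 (25241 of 25265), 26 symbols that had become dates were restored, and promoter sequences came from RefSeq.

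Counts were tested with edgeR 4.0.16 (limma 3.58.1, R 4.3.3): filterByExpr, scaling by TMM, a quasi-likelihood model of the genotype label with robust estimation, and Benjamini-Hochberg adjustment over the genes tested. The standard error was taken as the size of the log2 fold change over the root of the F statistic. Fitted fold changes used a prior count of 0.125 and log2 CPM a prior count of 0.5. The test was checked on simulated counts. Replicates of a group differed by more than sampling noise (chi-square per degree of freedom 21.2 and 8.41), so none were merged. Alternatives covered scaling, filters, DESeq2 1.42.0, fits without robust estimation or with a replicate block, summed paralogs, and each library left out. An offset for GC content was added after seeing the data.

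The members and lists were chosen with earlier results of these data known. The rule named all 5 members, Ythdf2, called genes of the 18 lists, the 3 of lowest p in each list and the 5 nearest patterns; for cell type lists mostly counts are given. Genes shown outside it (among them Car1, Klf1, Alas1, Hmox1 and Tfrc) were chosen by role after their values were seen. Some genes of the lists are counted in the totals but not reported here by name.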

Additional observations from a re-analysis of the deposited data

How the results depend on the processing

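The log2 fold changes of the 5 members kept their sign in every alternative that gave a value. Over the 11 alternatives on all libraries they ran from 0.51 to 0.78 for Hba-a1, from 0.74 to 0.86 for Hbb-bs and from 0.20 to 0.33 for Alas2, with the lowest value for each in a fit with the GC offset. Hbb-bt was left out by the filter of 10 counts in every library and by the summing of paralogs, and ran from 1.21 to 1.28 over the other 9. Summing gave 0.70 for the alpha pair and 0.84 for the beta pair, with adjusted p values of 0.241 and 0.144 by edgeR. No member was called in the other alternatives, except that 1 was called (Hbb-bs) with the replicate block and 0 to 1 (Hbb-bs, without control replicate 2) when 1 library was left out. Counts of genes called higher and lower were 181 and 37 with library totals alone, 137 and 80 by the DESeq2 Wald test, and 89 and 67 with the GC offset, and 15 were lower without robust estimation. With the replicate block they were 627 and 390, and 284 and 305 when that block was joined to the offset for GC. Leaving out 1 library gave 30 to 1048 higher and 5 to 523 lower; such fits assume that the lone library varies like the other group. The cause was not tested for any of these changes. Labels do not say that the numbers pair libraries, and deviations of same-numbered libraries correlated at 0.091 across genes, over only 2 pairs. Hba-a2, at 4 to 8 counts per library, had an SE of 0.84 on its log2 fold change in the fit with no filter.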
